A study of Mus musculus with 8 samples.

Results

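The interferon response and antiviral sensor genes were followed in peri-ovulatory mouse granulosa cells, the follicle cells that surround the oocyte. They are 32 genes, chosen by symbol from a table of 51886, and every one of the 32 was found in it. The study compared 4 libraries from mice lacking PGR-A, an isoform of the progesterone receptor, with 4 libraries from wild-type (WT) mice, both from the PGR-A KO strain. All mice, knockout and wild type, were 21 to 27 days old and had been given 5 IU eCG, a hormone that drives follicle growth, and 46 h later 5 IU hCG, the trigger of ovulation. The granulosa cells were collected 8 h after hCG, and each library holds the pooled cells of 2 to 3 mice. The labels call the mice PRAKO, with genotype KO or WT, and do not state the allele or the background strain. P-values measure the spread between these pools.

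Type I interferons signal through the receptor chains IFNAR1 and IFNAR2, and interferon gamma through IFNGR1 and IFNGR2. The receptors activate JAK kinases and STAT proteins, and a complex that holds STAT2 and IRF9 binds a DNA element called the interferon-stimulated response element. Genes behind that element encode sensors of foreign RNA, such as RIG-I and MDA5, and proteins that block virus replication. In uninfected tissue a low constant signal keeps many of them at a basal level.

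Pgr, the targeted gene, held 3.21, 3.52, 2.01 and 3.08 TPM in the knockout libraries and 1.56, 0.878, 1.41 and 0.756 TPM in the WT libraries; the table gives 1 value for the gene and does not separate its isoforms, so the loss of PGR-A cannot be read from it. Genotypes are as labelled. PGR-A KO replicate 3 and WT replicate 1 stood apart from their groups in some genes. In Fkbp5, a steroid-responsive chaperone gene named after its values were seen, PGR-A KO replicate 3 held 280 TPM, like the 284 to 299.7 TPM of WT replicates 2, 3 and 4. WT replicate 1 held 407 TPM, near the 418 to 438 TPM of the other knockout libraries. In Lyve1, a hyaluronan receptor gene chosen in the same way, both lay with their labelled genotype, at 35.6 and 267 TPM, where the other libraries held 18.8 to 23.3 TPM in KO and 127 to 161 TPM in WT. For the counts and for some of the genes that moved with them, the value without them is given.

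The letters of that response element can be read in front of several of the genes, and they are shown because genes with the same element stood at very different levels. RefSeq promoters of the GRCm38.p6 build, each 250 bases before to 50 bases after a gene's start, were matched to 25 of the 32 genes. Dhx58, Mx1, Mx2, Usp18, Ifi27l2a, Rtp4 and Parp14 had no entry. The element's core was searched on both strands as GAAA followed by 2 bases of any kind and GAAA again, and matches may overlap. It occurred in 11 of 30 promoters of these genes, belonging to Isg15, Bst2, Oas1a, Rsad2, Stat2, Ifih1, Ddx58, Eif2ak2, Ifit1, Ifit3 and Ifit3b, and in 3.44% of all 32851 promoters. The windows below run in the direction of the gene, upstream of its start, with the core in capitals. A core on the strand opposite to the gene reads TTTC, 2 bases and TTTC.
Isg15 (chr4:156200855-156200916, minus strand): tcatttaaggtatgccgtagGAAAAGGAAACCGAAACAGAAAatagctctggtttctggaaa
Bst2 (chr8:71537567-71537622, minus strand): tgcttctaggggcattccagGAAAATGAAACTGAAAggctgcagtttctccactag
Oas1a (chr5:120907526-120907565, minus strand): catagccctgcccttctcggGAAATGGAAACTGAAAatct
Rsad2 (chr12:26456543-26456592, minus strand): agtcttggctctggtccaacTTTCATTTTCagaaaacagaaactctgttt
Ifit1 (chr19:34640765-34640833, plus strand): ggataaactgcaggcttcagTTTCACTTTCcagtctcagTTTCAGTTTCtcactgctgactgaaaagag
Ifit3 (chr19:34583353-34583436, plus strand): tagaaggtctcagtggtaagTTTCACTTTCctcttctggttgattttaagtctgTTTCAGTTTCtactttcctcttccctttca

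The Isg15 window holds 3 overlapping copies of the core, and those of Bst2 and Oas1a 2 each. The 2 cores of Ifit3 stand apart, and the Ifit3b promoter holds the same 84 letters. The gamma-activated site, TTCNNNGAA, which reads the same on both strands, occurred in 9 of the 30 promoters, those of Irf1, Ifnar1, Ifnar2, Adar, Oas1a, Bst2, Ifi35, Eif2ak2 and Ifit2, and in 8.30% of all promoters. In the Bst2 promoter it overlaps the response element. A match of letters is a description of the window and does not show binding.

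Levels are given in TPM, transcript abundance scaled to a common library total, a share that accounts for transcript length, so they can be compared between genes. The genes spanned from 0.125 TPM for Mx1 to 141 TPM for Bst2 as means over all 8 libraries. Of the 32 genes, 4 had a mean of at least 50 TPM (Bst2, Irf3, Ifngr2 and Ifnar1), 10 lay between 10 and 50 TPM, 11 between 1 and 10 TPM and 7 under 1 TPM. Those under 1 TPM were the 4 Ifit genes, Mx1, Mx2 and Ifi44. Bst2 and Ifit1, both with 2 cores in the windows printed above, stood at 141 TPM and 0.643 TPM.

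**Figure D1:**
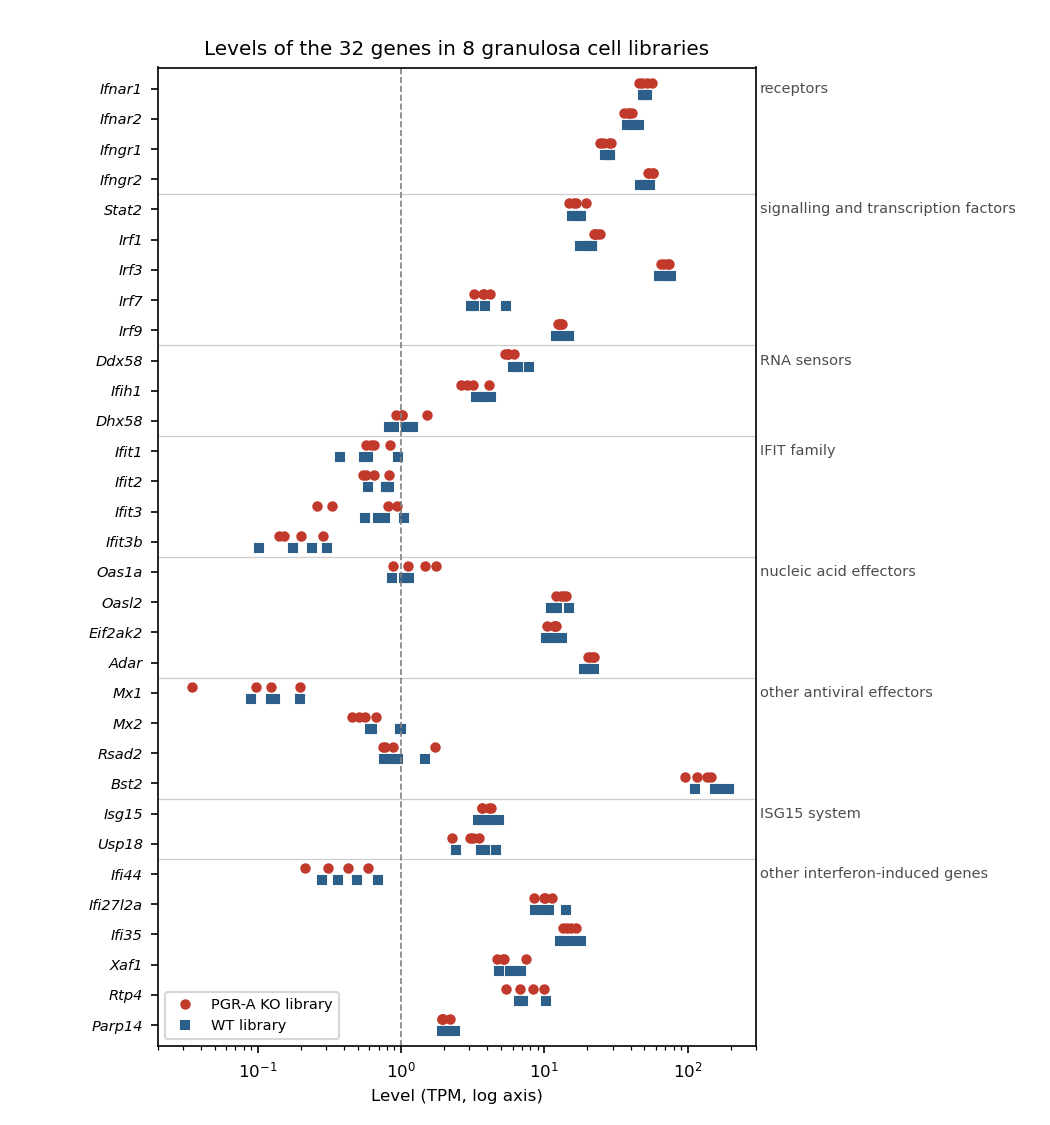
Level in TPM (log axis) of each of the 32 genes in the 4 PGR-A KO libraries (circles) and the 4 WT libraries (squares), ordered by role; the dashed line marks 1 TPM. Receptors and Bst2 lie to the right, the Ifit genes, Mx1, Mx2 and Ifi44 mostly left of the line, and the groups of libraries overlap for nearly every gene.

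Genotypes were compared with limma on log2(TPM + 1), in the 14472 genes that reached 1 TPM in 4 or more libraries. Of the 32 genes, 24 passed this filter. The 8 that did not were Ifit1, Ifit2, Ifit3, Ifit3b, Mx1, Mx2, Rsad2 and Ifi44. None of the 24 passed an adjusted p of 0.05, where 0.0138% of all genes tested (2 genes) did. The lowest adjusted p was 0.783, for Irf1. At an unadjusted limma p under 0.05 there was 1 of the 24, Irf1, which was higher in PGR-A KO. Over all genes tested 6.31% had such a p, 0.974% with the knockout higher and 5.33% with it lower. Irf1 was also the only one of the 24 whose groups of libraries did not overlap, which held for 0.601% of all genes tested with the knockout higher and 2.82% with it lower.

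The knockout had the lower mean log2 level in 17 of the 24 genes and the higher in 7. Over all genes tested 57.4% were lower. The median log2 change (PGR-A KO minus WT) was -0.03 over the 24 genes and -0.02 over all genes tested. This split depended on the scaling between libraries, as did that of all genes tested. With factors from a trimmed mean of ratios it was 12 lower and 12 higher, where 48.4% of all genes were lower. With quantile normalization it was 8 lower and 16 higher, where 45.6% of all genes were lower. Without WT replicate 2 it was 11 lower and 13 higher, where 62.0% of all genes were lower. In bulk samples, fewer cells that carry a transcript and less of that transcript per cell cannot be told apart.

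**Figure D2:**
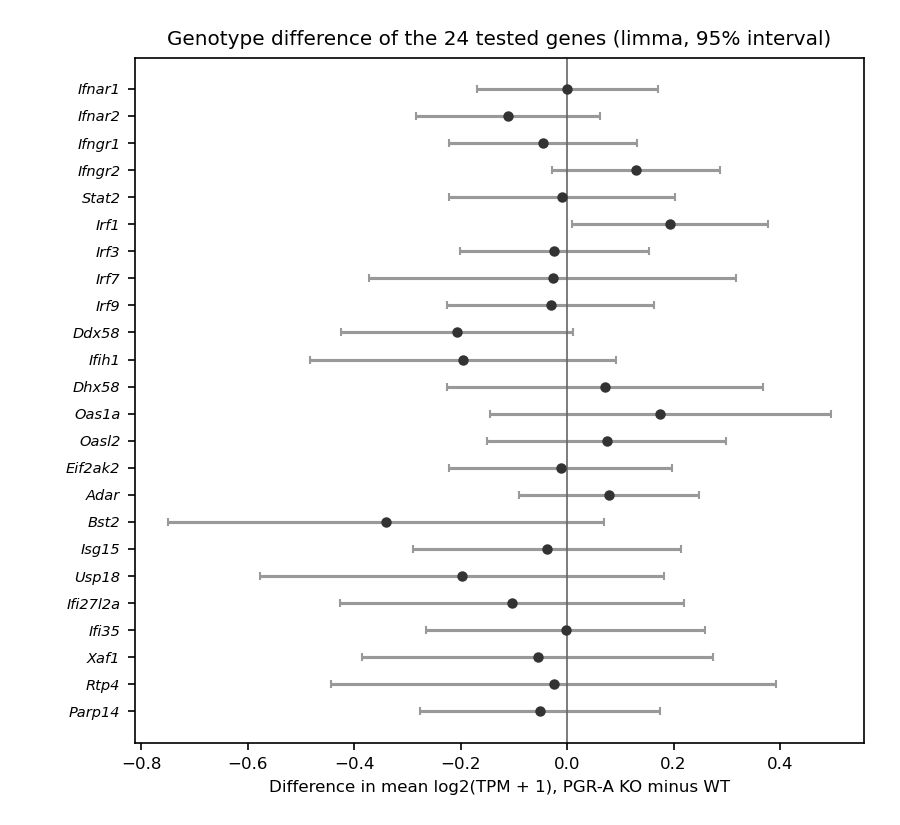
Difference in mean log2(TPM + 1), PGR-A KO minus WT, for the 24 genes tested; points are limma estimates and bars their 95% intervals. The Irf1 interval alone lies wholly on one side of 0, at 0.01 to 0.38, before any adjustment for the number of genes, and the Bst2 interval is the widest to the left, reaching -0.75.

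The receptor genes were at steady, moderate levels. Ifnar1, Ifnar2 and Ifngr2 lie close together on chromosome 16 of mm10, with Ifnar2 from 91372783 to 91405589, Ifnar1 from 91485238 to 91507441 and Ifngr2 from 91547072 to 91565623, all on the plus strand. Ifnar1 held 51.7, 56.1, 45.5 and 48.3 TPM in PGR-A KO and 50.2, 49.9, 52.0 and 48.9 TPM in WT. The WT values lay within the range of the knockout values, and the log2 change was 0.00 (SE 0.08, 95% interval -0.17 to 0.17). Ifnar2, the partner chain, held 38.5 ± 2.01 TPM in KO and 41.8 ± 3.29 TPM in WT (mean ± SD, 4 libraries each).

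Ifngr1, the ligand-binding chain of the interferon gamma receptor, held 27.0 ± 2.32 TPM in KO and 27.8 ± 1.11 TPM in WT (mean ± SD, 4 libraries each). Ifngr2, its signalling partner, held 52.6, 57.7, 57.4 and 53.5 TPM in KO and 50.4, 46.5, 50.7 and 54.4 TPM in WT. WT replicate 4 alone reached the knockout values, and the log2 change was 0.13 (SE 0.07, limma adjusted p = 0.796). No receptor gene varied by more than 1.27 times between its lowest and highest library. The receptors stood at the 64.1st (Ifngr1) to 80.7th (Ifngr2) percentile of mean TPM among the genes tested.

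The genes of the signalling complex and the interferon regulatory factors ranged from 3.82 TPM (Irf7) to 70.7 TPM (Irf3). Irf1, a transcription factor downstream of interferon gamma, lies on chromosome 11 from 53770014 to 53778374 on the plus strand. It held 22.5, 24.4, 23.1 and 22.2 TPM in KO and 19.6, 17.8, 21.5 and 21.5 TPM in WT. Every knockout library lay above every WT library, with the nearest pair at 22.2 and 21.5 TPM. The means were 23.1 ± 1.00 TPM in KO and 20.1 ± 1.81 TPM in WT (mean ± SD, 4 libraries each), a ratio of 1.15. The log2 change of Irf1 was 0.19 (SE 0.08), with an exact 2-sided permutation p of 0.0286, the smallest that 4 against 4 libraries allow, and 0.835 after adjustment over all genes tested. Its adjusted limma p ran from 0.301 to 1.00 over the main fit and the 16 alternatives, so Irf1 passed in none of them. Omitting both WT replicate 1 and PGR-A KO replicate 3, its log2 change was 0.18 (limma adjusted p = 0.301).

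Irf3, which is held ready in the cytoplasm and activated by the RNA sensors, held 72.6, 74.2, 65.1 and 68.1 TPM in KO and 77.1, 71.9, 72.9 and 63.3 TPM in WT. The groups overlapped over most of their range (log2 change -0.02, SE 0.08). Irf7, which amplifies type I interferon production, held 3.80, 3.73, 4.19 and 3.23 TPM in KO and 3.84, 5.41, 3.25 and 3.07 TPM in WT. WT replicate 2 was the highest library, and the other 3 WT libraries lay among the knockout libraries or below them. Stat2 and Irf9, partners in the complex that binds the response element, differed little: Stat2 held 16.8 ± 1.95 TPM in KO and 16.8 ± 1.02 TPM in WT (mean ± SD, 4 libraries each). Irf9 held 12.9 ± 0.405 TPM in KO and 13.2 ± 1.35 TPM in WT (mean ± SD, 4 libraries each).

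The RNA sensors were at low levels in both genotypes. Ddx58, which encodes RIG-I, a sensor of RNA ends (chromosome 4, 40203773 to 40239828, minus strand), held 5.55, 5.55, 6.16 and 5.36 TPM in KO and 6.50, 7.78, 6.45 and 6.06 TPM in WT. Only PGR-A KO replicate 3 exceeded the lowest WT library, and the ratio of means was 0.844. The log2 change of Ddx58 was -0.21 (SE 0.10, 95% interval -0.42 to 0.01), with an exact permutation p of 0.0571 and a limma adjusted p of 0.789.

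Ifih1, which encodes MDA5, a sensor of long double-stranded RNA, held 2.64, 2.89, 4.12 and 3.17 TPM in KO and 3.74, 4.24, 3.82 and 3.34 TPM in WT. PGR-A KO replicate 3 lay among the WT libraries and the other 3 below them; the log2 change was -0.20 (SE 0.13, limma adjusted p = 0.834). Without that library it was -0.29 for Ifih1 (limma adjusted p = 0.426) and -0.24 for Ddx58 (limma adjusted p = 0.462). With WT replicate 1 omitted as well it was -0.30 for Ifih1 and -0.25 for Ddx58, with limma adjusted p-values of 0.178 and 0.208. Dhx58, which encodes LGP2, a regulator of these sensors, held 1.11 ± 0.272 TPM in KO and 1.01 ± 0.178 TPM in WT (mean ± SD, 4 libraries each), a log2 change of 0.07 (SE 0.13). Its mean over all libraries, 1.06 TPM, is close to the filter.

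The Ifit genes, whose proteins bind foreign RNA and stop its translation, were the lowest family. Ifit1 held 0.653, 0.568, 0.844 and 0.614 TPM in KO and 0.585, 0.957, 0.375 and 0.549 TPM in WT. The highest and the lowest library were both WT. Ifit2 ranged from 0.543 to 0.827 TPM over the 8 libraries, Ifit3 from 0.258 to 1.05 TPM and Ifit3b from 0.102 to 0.303 TPM. Ifit3 and Ifit3b share 97.8% of 1700 aligned bases, so the division of reads between them is uncertain. None of the 4 passed the filter, and TPM gives no depth from which their counting error could be found.

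The other low effectors were the Mx GTPases, Rsad2 and Oas1a. GENCODE M21 lists Mx2 as a polymorphic pseudogene. Mx1 ranged from 0.0345 to 0.198 TPM in KO and from 0.0903 to 0.196 TPM in WT. Mx2 held 0.561, 0.510, 0.664 and 0.459 TPM in KO and 0.604, 0.978, 1.00 and 0.627 TPM in WT. Only PGR-A KO replicate 3 exceeded the lowest WT libraries of Mx2. In a fit without the filter its log2 change was -0.21 (SE 0.10), with a limma adjusted p of 0.866. Rsad2, which encodes viperin, held 0.770, 0.755, 1.72 and 0.882 TPM in KO and 0.764, 0.875, 1.46 and 0.948 TPM in WT. It was high in 1 library of each genotype.

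Oas1a, an oligoadenylate synthetase activated by double-stranded RNA, held 1.31 ± 0.383 TPM in KO and 1.03 ± 0.117 TPM in WT (mean ± SD, 4 libraries each). It shares 97.6% of 1861 aligned bases with Oas1g, so its value is uncertain. Ifi44, the last of the genes under the filter, ranged from 0.214 to 0.591 TPM in KO and from 0.282 to 0.690 TPM in WT.

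A second set of effectors stood well above the filter and varied little between libraries. Adar, an enzyme that edits double-stranded RNA, held 21.3 ± 0.845 TPM in KO and 20.1 ± 1.48 TPM in WT (mean ± SD, 4 libraries each). Oasl2, an OAS-like protein, held 13.2 ± 0.898 TPM in KO and 12.6 ± 1.59 TPM in WT (mean ± SD, 4 libraries each). Eif2ak2, which encodes the kinase PKR, held 11.5 ± 0.702 TPM in KO and 11.7 ± 1.23 TPM in WT (mean ± SD, 4 libraries each). Their log2 changes were 0.08 (SE 0.07), 0.07 (SE 0.10) and -0.01 (SE 0.09).

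Bst2 was the most abundant of the 32 genes and had the largest log2 difference among the 24 tested. It encodes tetherin, a membrane protein that holds budding viruses at the cell surface (ENSMUSG00000046718.8, chromosome 8, 71534255 to 71537456, minus strand). It held 116, 136, 146 and 95.9 TPM in KO and 112, 196, 168 and 154 TPM in WT. WT replicates 2, 3 and 4 lay above every knockout library, while WT replicate 1 lay below all but 1 of them. The means were 124 ± 22.4 TPM in KO and 158 ± 34.8 TPM in WT (mean ± SD, 4 libraries each), and the log2 change was -0.34 (SE 0.18, exact permutation p = 0.171, limma adjusted p = 0.796). Bst2 was the single gene of the 24 to pass in any alternative. It did so when both WT replicate 1 and PGR-A KO replicate 3 were omitted, with a log2 change of -0.58 and a limma adjusted p of 0.0499, where 1077 of all genes passed. That omission was chosen from expression values, so its calls do not measure the effect of genotype. With single libraries omitted its log2 change ran from -0.49 (without WT replicate 1) to -0.23 (without PGR-A KO replicate 4). Over all 17 fits the adjusted p of Bst2 ran from 0.0499 to 1.00.

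Isg15 and Usp18 form a pair, a ubiquitin-like protein and the protease that removes it and restrains interferon signalling. Isg15 (chromosome 4, 156199424 to 156200818, minus strand) held 4.26, 3.65, 4.09 and 3.67 TPM in KO and 3.78, 4.83, 3.44 and 4.25 TPM in WT. The groups overlapped throughout, with a log2 change of -0.04 (SE 0.11). Usp18 held 3.04, 3.17, 3.50 and 2.27 TPM in KO and 4.61, 3.84, 2.40 and 3.64 TPM in WT. WT replicate 3 lay near the lowest knockout library, and the log2 change was -0.20 (SE 0.17, limma adjusted p = 0.880). It was -0.34 without WT replicate 3, and -0.10 without WT replicate 1 or without PGR-A KO replicate 4, with limma adjusted p-values of 0.994, 0.861 and 0.998.

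The remaining interferon-induced genes had log2 changes between -0.10 and 0.00 in the main fit. Ifi27l2a held 9.92 ± 1.16 TPM in KO and 10.8 ± 2.31 TPM in WT (mean ± SD, 4 libraries each). Ifi35 held 15.0 ± 1.43 TPM in KO and 15.1 ± 2.32 TPM in WT (mean ± SD, 4 libraries each). Xaf1, which binds the apoptosis inhibitor XIAP, held 5.62 ± 1.23 TPM in KO and 5.84 ± 0.852 TPM in WT (mean ± SD, 4 libraries each). The log2 change of Xaf1 was -0.06 in the main fit. It was -0.25 with PGR-A KO replicate 3 and WT replicate 1 both omitted (limma adjusted p = 0.197). Rtp4, a receptor transporter protein, held 8.33, 5.42, 9.98 and 6.81 TPM in KO and 7.13, 10.3, 6.82 and 6.70 TPM in WT. Its highest WT library was replicate 2 and its highest knockout library replicate 3. Parp14, an ADP-ribosyltransferase, held 2.01 ± 0.131 TPM in KO and 2.12 ± 0.201 TPM in WT (mean ± SD, 4 libraries each).

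High and low values were unevenly spread over the libraries. WT replicate 2 was the highest of the 8 libraries in 11 of the 24 tested genes and in 4 of the 8 others. PGR-A KO replicate 4 was the lowest in 6 of the 24, WT replicate 3 in 5 and WT replicate 2 in 4. The same counts were not taken over all genes tested. These counts therefore do not show whether the pattern is particular to the interferon genes. For the 15 tested sensors and effectors, receptors and transcription factors left out, the mean deviation from each gene's own average on the log2 scale was 0.20 in WT replicate 2 and 0.12 in PGR-A KO replicate 3. It was -0.15 in PGR-A KO replicate 4, and the other 5 libraries lay between -0.04 and -0.01. Irf1, Ifngr2, Dhx58 and Adar ran the other way, with WT replicate 2 their lowest library. The SD of log2 levels over the 8 libraries had a median of 0.13 for the 24 genes and 0.17 for all genes tested.

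**Figure D3:**
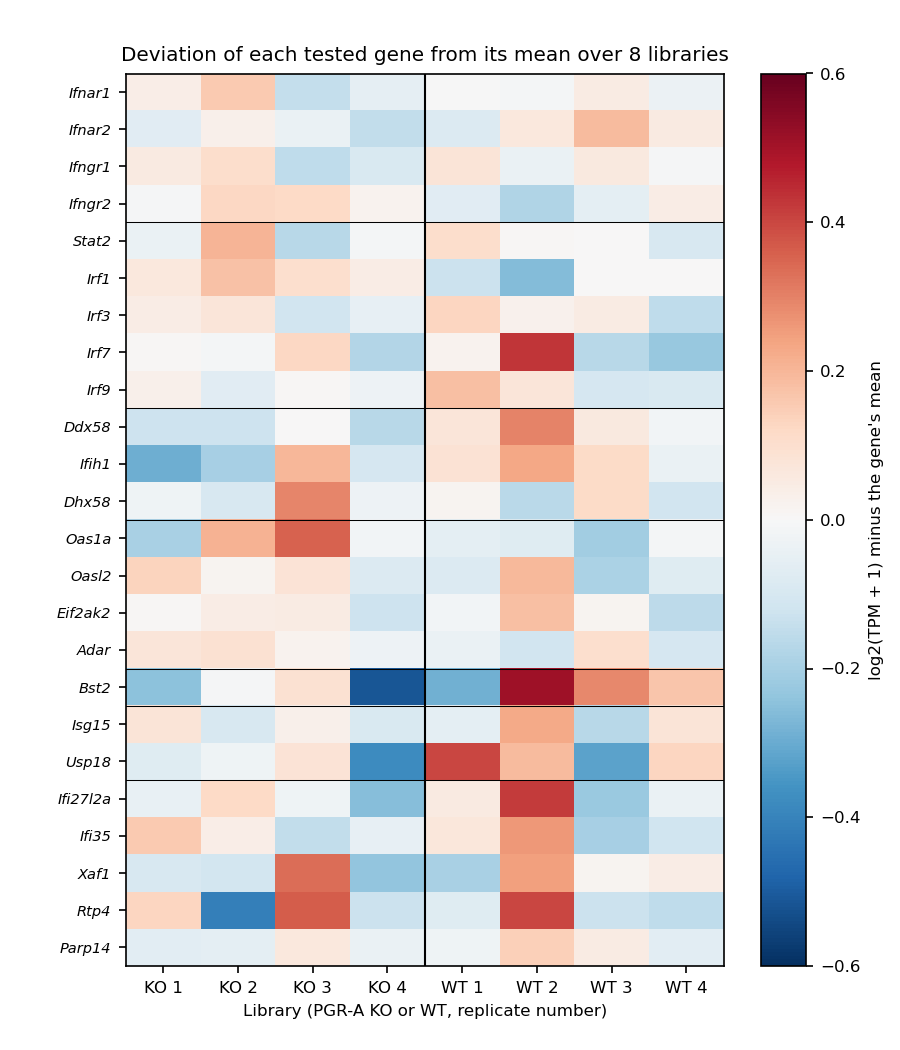
Deviation of each of the 24 tested genes from its own mean over the 8 libraries, on the log2(TPM + 1) scale (red higher, blue lower), with PGR-A KO replicates on the left and WT replicates on the right of the black line. Red collects in WT 2 and, for sensors and effectors, in KO 3, and Bst2 is the darkest row.

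Cell type markers also differed between these libraries. The granulosa markers Fshr, Foxl2 and Inha were present in every library, and the 13 granulosa markers summed to 5189 to 7065 TPM in KO and 6007 to 8775 TPM in WT, highest in WT replicate 2. The 12 macrophage markers summed to 55.6 to 118 TPM in KO, with PGR-A KO replicate 3 highest and replicate 4 lowest. In WT they summed to 87.1 to 119 TPM, with WT replicate 4 highest, where the sensors and effectors had a mean deviation of -0.03. WT replicate 2, where that deviation was 0.20, summed to 97.4 TPM. Of the 12 markers, 11 had the lower mean in KO. The macrophage markers Lyz2 and C1qc held 70.3 and 6.80 TPM in PGR-A KO replicate 3, against 30.7 to 35.6 TPM and 2.97 to 4.40 TPM in the other knockout libraries. All 10 oocyte markers had the higher mean in KO, and the 8 surface epithelium markers and 11 of the 13 granulosa markers the lower. Their part in the levels of the interferon genes was not tested. The defining marker of plasmacytoid dendritic cells, known as strong producers of type I interferon, was near 0: Siglech reached at most 0.170 TPM. Ccr9 and Spib of that list were under 0.5 TPM in every library too. The rest of the list was present, with Tcf4 at 37.8 to 56.6 TPM, Bcl11a at 9.94 to 17.0 TPM and Clec10a at 2.86 to 5.70 TPM. Cd3e of T cells and Ly6g of neutrophils were also under 0.5 TPM in every library, while other genes of those lists were present, with Trac at 2.11 to 5.67 TPM, Lck at 3.19 to 4.58 TPM and Camp at 3.28 to 11.5 TPM. Summed markers in KO and WT were 17.2 to 31.3 and 22.5 to 47.1 TPM for endothelial cells, 93.1 to 96.4 and 87.6 to 125 TPM for surface epithelium, and 85.3 to 130.1 and 89.2 to 110.6 TPM for theca and stromal cells. They were 789 to 1422 and 578 to 1094 TPM for oocytes and 3660 to 6318 and 1732 to 11370 TPM for erythroid cells.

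Summed TPM were 12.1 to 33.9 and 8.55 to 33.6 for the neutrophil list, high in PGR-A KO replicate 3 and WT replicate 4. They were 7.20 to 12.1 and 7.65 to 10.7 for T and NK cells, 6.84 to 10.5 and 6.93 to 9.30 for B cells, and 55.6 to 72.2 and 55.3 to 71.0 for the plasmacytoid dendritic cell list, most of it from Tcf4. In the neutrophil list the high libraries stood out in S100a8 and S100a9. PGR-A KO replicate 3 held 8.32 and 14.9 TPM of these and WT replicate 4 10.1 and 11.9 TPM. No other library exceeded 1.41 TPM of S100a8 or 3.12 TPM of S100a9. Camp, the most abundant gene of that list, was at its knockout minimum in PGR-A KO replicate 3, at 5.33 TPM.

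Other genes of the pathway came from a list of 146, of which 145 were in the table and 92 passed the filter. With limma none of the 92 passed an adjusted p of 0.05; 5 had an unadjusted p under 0.05, 4 of them lower and 1 higher in KO, against 6.31% of all genes tested. The knockout had the lower mean log2 level in 61 and the higher in 31, where 57.4% of all genes were lower, with a median log2 change of -0.04. Groups of libraries did not overlap in 2 of the 92, both lower in KO, against 2.82% of all genes tested. Interferon ligand genes were almost absent: 15 of 21, Ifnb1 among them, were listed at 0 in every library. The highest value of any ligand gene was 0.551 TPM, for Ifnk, which encodes a type I interferon known from keratinocytes.

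Jak1, the kinase shared by the type I, type II and type III receptors, had the lowest p of the 92. It held 159, 164, 167 and 148 TPM in KO and 214, 269, 236 and 196 TPM in WT. All WT libraries lay above all knockout libraries, with means of 160 ± 8.34 TPM in KO and 229 ± 31.4 TPM in WT (mean ± SD, 4 libraries each) and a ratio of WT to KO of 1.43. The log2 change of Jak1 was -0.51 (SE 0.10, 95% interval -0.73 to -0.28), with an unadjusted limma p of 0.000599, an adjusted p of 0.433 and an exact permutation p of 0.0286. Its log2 change stayed between -0.58 and -0.43 over the main fit and the 16 alternatives, with an adjusted p from 0.0322 to 1.00. It passed only with PGR-A KO replicate 3 and WT replicate 1 both omitted.

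H2-D1, a class I histocompatibility gene that presents antigen, held 81.6, 88.2, 80.3 and 75.1 TPM in KO and 89.8, 102, 94.6 and 98.9 TPM in WT. These groups did not overlap either (log2 change -0.24, SE 0.07, limma adjusted p = 0.721, exact permutation p = 0.0286). B2m, its partner chain and the most abundant gene of the list, held 306 ± 15.6 TPM in KO and 333 ± 11.5 TPM in WT (mean ± SD, 4 libraries each).

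The feedback inhibitor Socs3 held 14.7, 14.5, 10.7 and 13.2 TPM in KO and 12.8, 9.27, 9.99 and 11.0 TPM in WT (log2 change 0.28, SE 0.13, limma adjusted p = 0.783). With PGR-A KO replicate 3 and WT replicate 1 both omitted, its log2 change was 0.45 (limma adjusted p = 0.033). That omission was chosen from expression values. Rnf125, a ubiquitin ligase that acts on RIG-I, held 90.9 ± 26.2 TPM in KO and 86.0 ± 33.0 TPM in WT (mean ± SD, 4 libraries each). Among the sensor adaptors the ligase Trim25 was the most abundant, at 24.4 ± 2.14 TPM in KO and 23.1 ± 1.95 TPM in WT (mean ± SD, 4 libraries each). The kinase Ikbke, with the lowest p of that group, held 3.46 ± 0.486 TPM in KO and 4.21 ± 0.852 TPM in WT (mean ± SD, 4 libraries each).

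**Figure D4:**
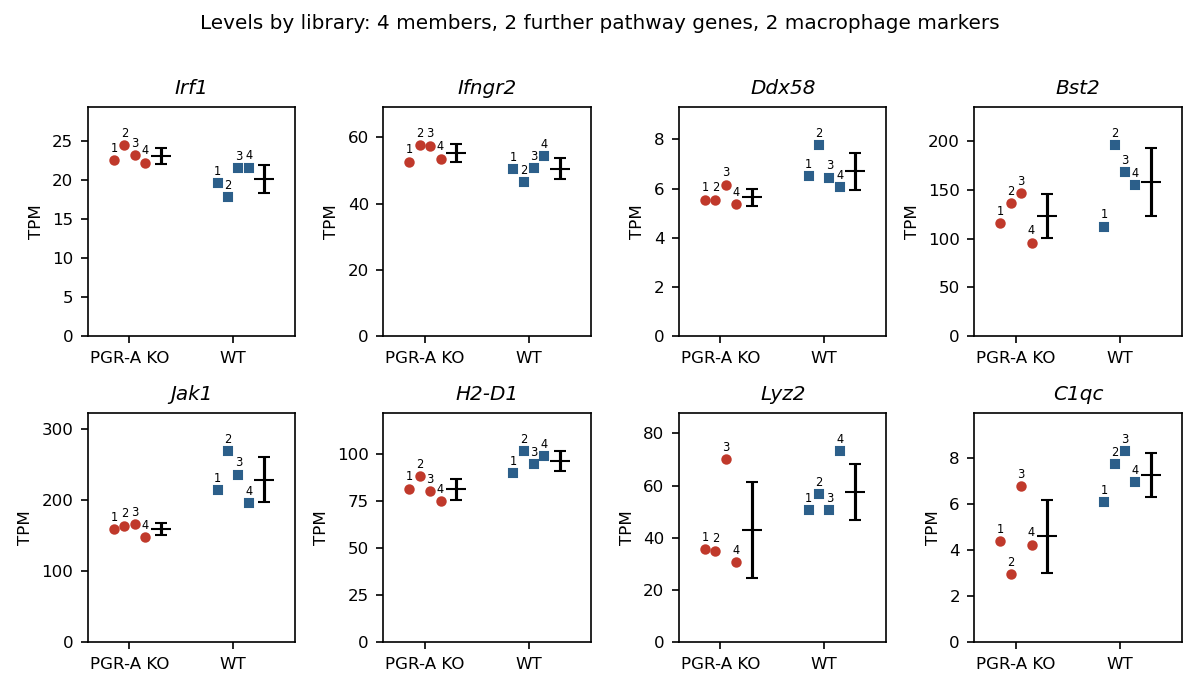
Levels in TPM (linear axes from 0) by library, numbered by replicate, for Irf1, Ifngr2, Ddx58 and Bst2, the pathway genes Jak1 and H2-D1, and the macrophage markers Lyz2 and C1qc; bars are mean and SD of 4 libraries. Irf1, Jak1 and H2-D1 show groups that do not overlap, and PGR-A KO replicate 3 lies high in Lyz2 and C1qc.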

How the data were processed

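Poly(A) RNA of 8 libraries, 4 PGR-A KO and 4 WT, was sequenced from both ends, per the labels' protocols. The authors deposited 1 table of TPM; Salmon, FastQC, edgeR and limma, with build mm10, appear in the submitters' processing notes, and the annotation is not given in the sources used here. Library totals ran from 994519 to 997022 TPM. Depth is unknown, so no counting error is given.

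Genotypes were compared on log2(TPM + 1) in limma 3.58.1 under R 4.3.3 (trend, 2-sided, Benjamini-Hochberg over the 14472 genes tested, no covariate), which understates changes of low genes. Single genes were compared by an exact permutation test over 70 assignments. The limma fit, not the permutation test, was checked on simulated data. Alternatives were other pseudocounts, filters and scalings, a replicate block and libraries left out. Groups came from the sample titles. The 32 genes, the pathway and marker lists, the tests and the alternatives were chosen with earlier results of these data known. Named are all 32 genes and, of each other list, the most abundant gene and the one with the lowest p. Of the marker genes, values are printed where they touch a result. Siglech, Cd3e, Ly6g, Fshr and Foxl2 were named outside this rule, as defining markers. Ccr9, Spib, Bcl11a, S100a8 and S100a9 were named outside it after their values were seen, to show how their lists divide. Shared sequence was searched with BLASTN 2.17.0 (at least 95% identity over 200 bases) in GENCODE M21, whose positions are given.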

Additional observations from a re-analysis of the deposited data

Results flagged for a closer look

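In groups of 4 libraries, a library lay far from the other 3 in 3 of 64 groups of the 32 genes, where chance gives about 3.2 (1 in 20). Dhx58 reached 1.52 TPM in PGR-A KO replicate 3, above 0.916 to 1.02 TPM in the other knockout libraries. Rsad2 stood at 1.72 TPM in the same library, above 0.755 to 0.882 TPM. Rtp4 stood at 10.3 TPM in WT replicate 2, above 6.70 to 7.13 TPM in the other WT libraries.

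Among the marker genes, Lyz2 reached 70.3 TPM in PGR-A KO replicate 3, above 30.7 to 35.6 TPM, and Krt8 at 30.5 TPM, above 27.7 to 27.9 TPM.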

How the results depend on the processing

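The 24 tested genes gave none past the threshold in 15 of 16 alternatives. Omitting both PGR-A KO replicate 3 and WT replicate 1 gave 1 (Bst2). In that fit 8 of the 92 genes of the wider list passed, against 0 otherwise. Among them Jak1, Lgals3bp and Tent5a were lower, and Socs3, Shisa5, Stat3 and Tap2 higher. The same fit called 1077 of all 14472 genes tested, against 2 in the main fit, and its omission was chosen from expression values. Of the 24 genes, those at an unadjusted limma p under 0.05 numbered 1 in the main fit and 2 with trimmed-mean (TMM) factors. They numbered 3 without those 2 libraries and 0 to 2 with 1 library left out. Over all 14472 genes tested, 772 lower and 141 higher in KO had such a p in the main fit. These counts were 563 and 319 with TMM factors, and 2025 and 1582 without those 2 libraries. With 1 library left out they were 388 to 1436 and 68 to 533. Of the 24 genes, those with a lower mean in KO numbered 17, 8 with quantile normalization and 11 to 18 when single libraries were omitted. Over all genes tested the lower share was 57.4%, 45.6% and 52.0% to 64.6% in the same fits. For these shifts the cause was not tested. Same-numbered libraries deviated from their group means with correlations of 0.36, -0.11, 0.39 and -0.29 for replicates 1 to 4. Between libraries of different numbers the correlations ran from -0.55 to 0.43. These values do not settle whether replicate numbers pair the libraries. With the replicate as a block, 0 of the 24 genes and 0 of the wider list passed. Of the 24, 1 had an unadjusted limma p under 0.05 (Bst2, in place of Irf1) and 17 had lower means. Over all genes tested 1112 lower and 256 higher in KO had such a p with the block, against 772 and 141 without it. A pseudocount of 0.1 or 5 and a minimum of 5 TPM, which left 17 genes, changed no count by more than 1.5 times. Without a filter 23 of 32 were lower, against 57.5% of all 33251 genes in that fit.

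In 14 of the 24 genes the sign of the log2 change turned in at least 1 alternative, in each case with a main change of at most 0.10 in size and no adjusted p under 0.662. With TMM factors Stat2 became 0.020, Irf3 0.0069, Eif2ak2 0.017, Ifi35 0.027 and Rtp4 0.0030. With quantile normalization Stat2 became 0.030, Irf7 0.044, Irf9 0.011, Eif2ak2 0.038, Isg15 0.021, Ifi35 0.037, Xaf1 0.0084, Rtp4 0.031 and Parp14 0.011. Without the 2 libraries together Ifngr1 became 0.017, Stat2 0.079, Irf3 0.048, Irf9 0.018 and Ifi35 0.068. With 1 library left out the log2 change ranged from -0.052 to 0.047 for Ifnar1, -0.079 to 0.045 for Stat2, -0.079 to 0.014 for Irf3, -0.11 to 0.11 for Irf7, -0.069 to 0.025 for Irf9, -0.015 to 0.12 for Dhx58, -0.066 to 0.047 for Eif2ak2, -0.10 to 0.030 for Isg15, -0.20 to 0.018 for Ifi27l2a, -0.070 to 0.083 for Ifi35, -0.18 to 0.017 for Xaf1 and -0.15 to 0.11 for Rtp4.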

Other observations

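Several of the 32 genes share exon bases with a neighbour, and how the counting used strand is not given in the sources used here. Irf3 shares 88 of 3442 exon bases with Bcl2l12 (27.2 TPM) and Irf7 45 of 3776 with Phrf1 (46.0 TPM), both on the opposite strand. Irf1 shares 135 of 3976 with Gm17334 (0.453 TPM), also opposite. On the same strand, Irf9 shares 123 of 5386 exon bases with Rnf31 (10.4 TPM). Rtp4 shares 296 bases on its own strand with Gm45338, which held 2.56 TPM. Mx2 matches Mx1 with 95.3% identity over 843 bases.

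Of the pathway genes with an unadjusted limma p under 0.05, named after their values were seen, Lgals3bp, a secreted glycoprotein, held 25.6 ± 4.52 TPM in KO and 34.5 ± 6.32 TPM in WT (mean ± SD, 4 libraries each), with an adjusted p of 0.774. Ifi27 held 93.4 ± 13.0 TPM in KO and 114 ± 16.2 TPM in WT (mean ± SD, 4 libraries each), with an adjusted p of 0.783. Il10rb, the shared chain of the type III receptor, lies in the receptor cluster on chromosome 16 and held 47.8 ± 3.31 TPM in KO and 41.9 ± 2.26 TPM in WT (mean ± SD, 4 libraries each), also with an adjusted p of 0.783. Its groups overlapped by 1 pair of libraries.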
